A study of Notamacropus eugenii with 7 samples.

Results

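The 5 miRNAs described here are known as markers of solid tissues other than the mammary gland, namely miR-1, miR-133a and miR-499 of muscle, miR-122 of liver and miR-215 of gut and kidney. They were chosen by name from the 346 miRNAs of the deposited table, of which 102 were listed in at least 1 library. All 5 were among the 102, but they were chosen with earlier results of these data known, so that this is not a result. The table held 5 milk libraries of lactating tammar wallabies, from days 35 and 75 (phase 2A), 120 and 175 (phase 2B) and 250 (phase 3) of lactation, and 2 blood serum libraries, from days 120 and 175. Milk was pooled from 10, 5, 4, 4 and 4 females in order of day and cleared of fat and cells before RNA isolation, and serum came from 2 females at each day, so that each condition was a single library without replicate. The days are those of the sample labels and of the table, and the study's text dates some of these collections a few days earlier. The comparison of the fluids addressed whether miRNAs of the maternal circulation pass into milk.

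A miRNA is a short RNA that pairs with target mRNAs, mainly through its seed near the 5′ end, and lowers their translation and stability. In mammals miR-1 and miR-133a are cut from shared primary transcripts in skeletal and heart muscle, and miR-499 lies in an intron of a myosin heavy chain gene of slow muscle and heart. MiR-122 is by far the most abundant miRNA of hepatocytes, where it acts on cholesterol and lipid metabolism, and it is widely used in serum as a marker of liver injury. MiR-215 belongs with miR-192 to a pair of near-identical miRNAs of the intestinal epithelium and kidney, and its gene neighbours a gene of miR-194.

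Every value below is a percent of the annotated miRNA reads of its library, deposited with 3 decimals, so that rounding leaves 0.0005 percentage points either way. An entry of 0 stands for a miRNA that was present below that limit, and an empty entry for an absent one. The depth is unknown from the table. With the read totals of the sequencing summary, 0.001% stood for between 17.5 and 77.0 reads in the 7 libraries, so that the printed steps were coarser than single reads. The listed shares summed to between 95.8% and 99.6% of each library. The labels of the fluids fitted the epithelial miRNAs of the miR-200 group, since miR-141, miR-200b, miR-200c and miR-429 together took 0.742% to 6.50% of the milk libraries and 0.009% and 0.024% of the serum libraries.

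The members fell into 3 patterns. MiR-215 was above 0 in all 7 libraries and was far the most abundant member in serum. MiR-122 was also above 0 in all 7, but near the lower end of the scale in most of them. The 3 muscle miRNAs were found in serum at 0.009% or less, and in milk only miR-133a was listed. Over all miRNAs, 40 were above 0 in all 7 libraries. The 5 members summed to 1.68% in the serum of day 120 and 2.72% in that of day 175, against 0.07%, 0.018%, 0.127%, 0.618% and 0.133% of milk miRNA reads in order of day, and miR-215 made up most of these sums except in the milk of day 35.

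**Figure D1:**
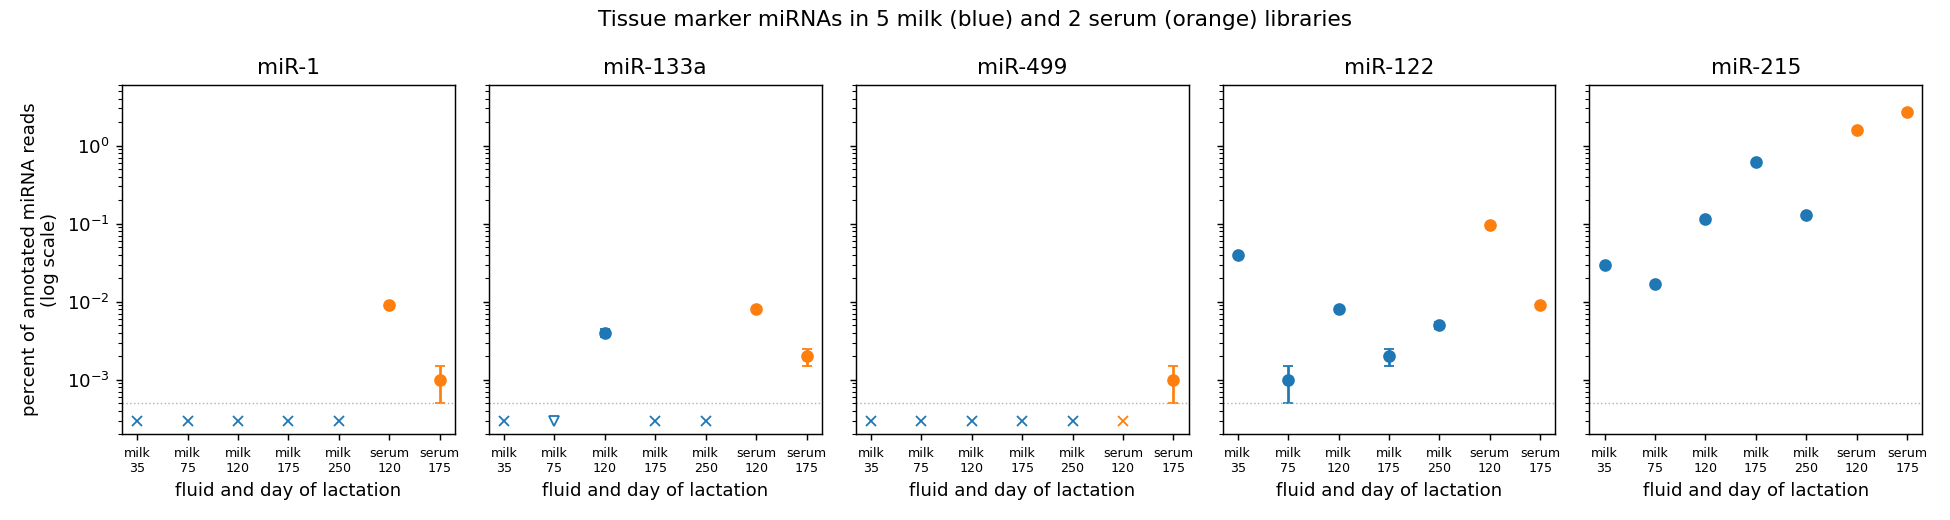
Percent of annotated miRNA reads (log scale) of each member in the milk libraries (blue) and serum libraries (orange), with the day of lactation under each point and bars for the rounding of the table. Crosses mark absence, the open triangle marks miR-133a at day 75 (present below 0.0005%, the dotted line), and miR-215 stood at 1.57% and 2.71% in serum against at most 0.616% in milk.

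The serum share of miR-1 was 0.009% on day 120 and 0.001% on day 175, and none of the 5 milk libraries listed it. It ranked 44 of the 70 miRNAs above 0 in serum at day 120, and at day 175 it shared rank 58 of 71 with 13 others. Only 5 miRNAs of the whole table were above 0 in serum and absent from every milk library, and miR-1 and miR-499 were among them.

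MiR-133a, which is made together with miR-1 in muscle, had a serum share of 0.008% on day 120 and of 0.002% on day 175. Its milk share was 0.004% on day 120, it was listed at 0 on day 75, and the milk of days 35, 175 and 250 lacked it. The milk library with a measurable share of miR-133a was thus the one collected with the serum of higher share, and that milk value lay between the values of the 2 serum libraries. MiR-1 was absent from the same milk library although it took about as large a share of the matching serum as miR-133a.

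MiR-499 was at the limit of the table, with 0.001% in serum at day 175 and absence from the other 6 libraries. In serum at day 120 miR-1, at 0.009%, lay a single printed step above miR-133a, at 0.008%, and miR-499 was absent. At day 175 miR-133a, at 0.002%, lay above miR-1 and miR-499, which both stood at 0.001% and could not be ordered between themselves. The muscle list also held miR-133b, miR-133c and miR-499a, which the table names and none of the libraries lists, and miR-206 and 3 names of miR-208, which the table does not name. Reads of near-identical copies such as miR-133a and miR-133b could be assigned to either entry by the counting.

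The milk share of miR-122 was 0.04% on day 35, 0.001% on day 75, 0.008% on day 120, 0.002% on day 175 and 0.005% on day 250. Serum held 0.096% on day 120 and 0.009% on day 175. The fluids overlapped, since the milk of day 35 lay above the serum of day 175. The 2 highest values of miR-122 were thus found in different fluids, and each stood apart from the later samples of its own fluid.

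From day 35 to day 75 the milk share of miR-122 was 40-fold lower, with 26.3-fold to 81-fold as the range that rounding leaves. These neighbouring days were its highest and lowest milk libraries, and 0.001% at day 75 is the smallest printed value above 0. All changes were then ordered with 0.001 added to each percentage, which limits the fall of miRNAs near 0. The fall of miR-122 was the largest of the 74 compared, a place that its own extremes favour. A difference of at least 2-fold downward was found for 12 of these 74 miRNAs, or 16.2%, and the median of all 74 was 1 on the log2 scale, upward. A miRNA that goes from absence to 0.001% comes out at exactly 1 on this scale. Above 0 were 42 miRNAs at day 35 and 74 at day 75, so that this median depends also on which miRNAs were listed. Day 35 held the highest milk share of miR-122, as it did for 8 of 64 miRNAs that reached 0.005% in any milk library (12.5%). At day 250 miR-122 was still 8-fold lower than at day 35, with a rounding range of 7.18-fold to 9-fold. On the log2 scale miR-122 fell by 5.32 to day 75 with the deposited shares, and fell by 4.36 with shares of all analysed reads. Its log2 ratio of day 250 over day 35 was -3 and -1.73 in the same order.

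The milk share of miR-215 was 0.03% on day 35, 0.017% on day 75, 0.115% on day 120, 0.616% on day 175 and 0.128% on day 250. Serum held 1.57% on day 120 and 2.71% on day 175, rank 6 in both. Both serum values lay above all 5 milk values. Within milk the day 175 library was highest, and rank 20 of 81 there was its best rank in milk, against rank 39 of 42 at day 35.

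Between day 75 and day 175 the milk share of miR-215 was 36.2-fold higher, and the rounding left 35.2-fold to 37.4-fold. These were its lowest and highest milk libraries, a pair chosen after the values were seen. With 0.001 added to each percentage, which limits the rise of miRNAs at 0 on day 75, miR-215 was first of 86 miRNAs in order of rise. The choice of its own extremes favours such a place, and from day 35 to day 175 it held place 11 of 81. The step from day 75 to day 120 alone was 6.76-fold upward, and that from day 120 to day 175 was 5.36-fold upward. From day 175 to day 250 the share was 4.81-fold lower. Day 175 was also the day of the highest milk share for 26 of 64 miRNAs (40.6%), so that a peak on that day was common. Other lists stood high in the same library. The red cell miRNAs miR-451 and miR-144 together took 0.047% there and at most 0.009% in the other milk libraries, and the epithelial list took its highest share of 6.50%. The white cell and platelet miRNAs miR-142, miR-150 and miR-223 did not, with 0.002% together at day 175 against 0.008% in the milk of day 120. The part of blood cell or epithelial content in the miR-215 peak was not tested.

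Between the serum samples of days 120 and 175 miR-122 and the muscle miRNAs miR-1 and miR-133a were lower at the later day and miR-215 was higher. MiR-122 was 10.7-fold lower at day 175, with a rounding range of 10.1-fold to 11.4-fold. MiR-1 was 9-fold lower, with a range of 5.67-fold to 19-fold, and miR-133a 4-fold lower, with a range of 3-fold to 5.67-fold. MiR-215 was 1.73-fold higher. In the ordering of all 78 miRNAs of serum, with 0.001 added to each percentage, miR-122 showed the largest fall, miR-1 shared place 3 and miR-133a shared place 11.

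On that scale 3 of the 5 members, miR-122, miR-1 and miR-133a, were at least 2-fold lower at day 175, against 20 of the 78 miRNAs, or 25.6%. Upward by at least 2-fold were 17 of the 78, or 21.8%, and 1 member, miR-499, which rests on a single step of 0.001% and is therefore not read as a rise. The median difference was -1.58 on the log2 scale over the 5 members and 0.04 over all 78. The members' median is the value of miR-133a alone, near the lower limit, and takes in miR-499 and the higher miR-215, so that it describes no common change. These differences compare 1 library with 1 library of 2 females each, and no test applies. The summed shares of the blood cell lists and the share of miR-126 of endothelium were higher at day 175, as that of miR-215 was, and unlike those of miR-122, miR-1 and miR-133a. Single markers differed, as miR-144 stood at 0.001% in both serum libraries and miR-142 went from absence to 0.001%. The red cell miRNAs took 0.042% of serum reads at day 120 and 0.055% at day 175, the white cell and platelet miRNAs took 0.041% and 0.12%, and miR-126 took 0.034% and 0.05%. The part of blood cell content in the serum differences was not tested.

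**Figure D2:**
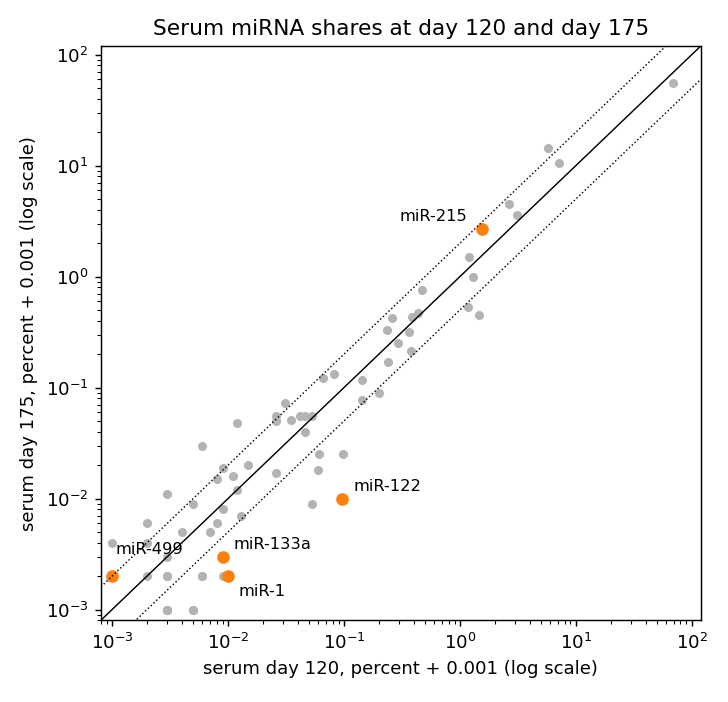
Share of each of 78 miRNAs in serum at day 120 (x) and day 175 (y), as percent plus 0.001 on log scales, with members in orange, the line of equality and dotted lines at 2-fold. MiR-122, miR-1 and miR-133a lie under the lower dotted line, and miR-215 lies between the line of equality and the upper dotted line.

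At day 120 miR-215 was 13.6-fold lower in milk than in serum and miR-122 was 12-fold lower, with a rounding range of 11.2-fold to 12.9-fold for miR-122. MiR-133a was 2-fold lower, with a range of 1.67-fold to 2.43-fold. With shares of all analysed reads the log2 ratio went from -3.77 to -5.35 for miR-215 and from -3.58 to -5.17 for miR-122. For miR-133a it went from -1 to -2.58. MiR-1 took 0.009% of serum and was absent from milk, and no fold is given. With 0.001 added, miR-215 and miR-122 were at least 2-fold lower in milk, as were 33 of 72 miRNAs (45.8%), and miR-133a was not. A miRNA absent from milk enters this comparison through its serum value and can then only come out lower in milk, as miR-1 did. From the serum end of the 72, miR-215, miR-122, miR-1 and miR-133a held places 5, 8, 10 and 34.

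At day 175 miR-215 was 4.40-fold lower in milk than in serum, and miR-122 was 4.5-fold lower with a range of 3.4-fold to 6.33-fold. With a denominator free of miR-10b and miR-191 the log2 ratio went from -2.14 to -3.66 for miR-215. For miR-122 it went from -2.17 to -3.69. MiR-133a, miR-1 and miR-499, with at most 0.002% in serum, were absent from milk. With 0.001 added, both miR-215 and miR-122 were at least 2-fold lower in milk, against 20 of 88 miRNAs (22.7%). The 3 muscle miRNAs entered through serum alone, so that nothing is read from their direction. Over all miRNAs compared, milk minus serum had a median log2 difference of -0.66 on day 120 and of 1 on day 175. A miRNA at 0.001% in milk and absent from serum comes out at exactly 1 on this scale. Milk held 57 and 81 miRNAs above 0 at these days and serum 70 and 71, so that the medians depend also on which miRNAs were listed.

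**Figure D3:**
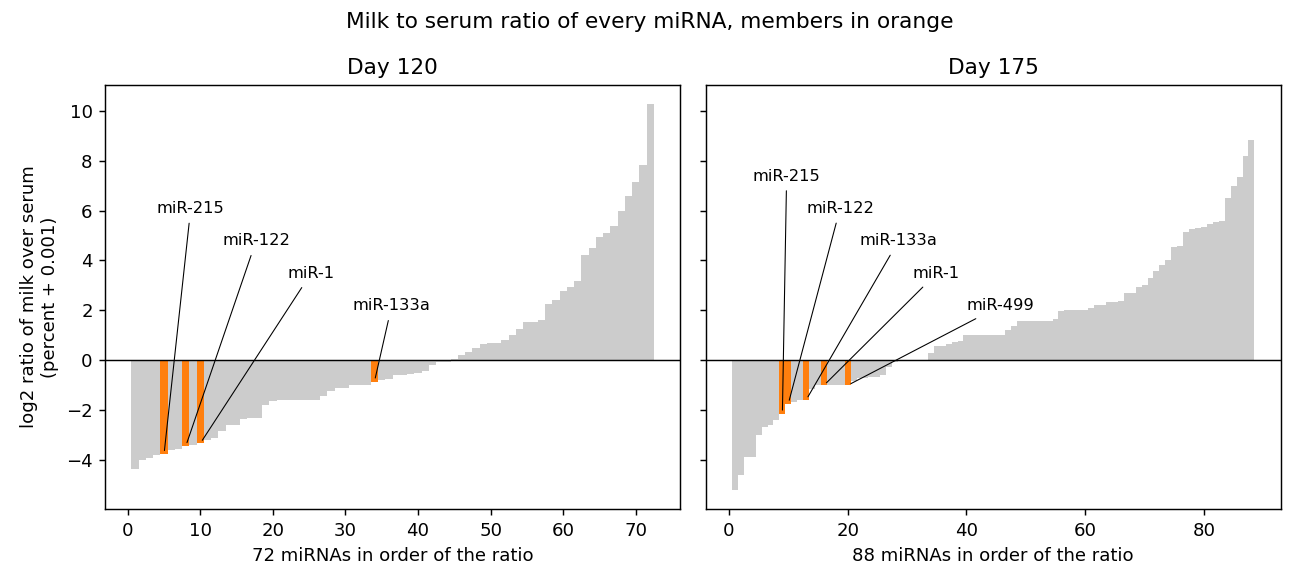
Log2 ratio of milk over serum (percent plus 0.001) for the 72 miRNAs of day 120 and the 88 of day 175 in order of the ratio, with members in orange. Each bar is 1 miRNA, and miR-1 at day 120 and the muscle miRNAs at day 175, absent from milk, can only lie on the serum side, while miR-215 stood at place 5 at day 120 and place 9 at day 175.

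Across miRNAs the fluids were tested with limma on log2 of percent plus 0.001, with the milk and serum libraries of days 120 and 175 and the days in place of replicates. The p-values therefore measure the spread between days. Of 75 miRNAs tested 14 had an adjusted p under 0.05 (18.7%), 3 of them lower in milk (4%). Of the members miR-215, miR-122, miR-133a and miR-1 entered the fit, and none was called. MiR-1 passed the filter on low values only through its 2 serum values and was absent from milk, so that its direction was fixed and no p-value of it is read as a result. MiR-215 had an unadjusted p under 0.05, as had 22 of the 75. The log2 difference of miR-215 was -2.95 (standard error 1.04, limma adjusted p = 0.11), with a 95% interval from -5.51 to -0.38. MiR-122 differed by -2.58 (standard error 1.29, limma adjusted p = 0.24) and its interval reached from -5.77 to 0.60. Without the serum of day 120 the difference of miR-122 was -0.94, and without that of day 175 it was -4.22. MiR-133a was above 0 in a single milk library and passed the filter only with its serum values. No p-value of miR-133a is read as a result either. The limma difference of miR-133a was -1.22, with an adjusted p of 0.47, and it ranged from -2.38 without the milk of day 120 to -0.06 without that of day 175. Without the same milk libraries that of miR-215 was -1.74 and -4.15. The median was 0.08 over the 75 miRNAs tested. With 0.01 added in place of 0.001, the limma difference was -1.61 for miR-122, -0.31 for miR-133a and -2.89 for miR-215.

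The calls turned with the scaling. MiR-215 and miR-122 had a limma adjusted p of 0.00068 and 0.0021 on the centred log ratio, and of 0.0074 and 0.046 with a denominator free of miR-10b and miR-191. In each of these fits limma called 27 miRNAs in all. With shares of all analysed reads miR-215 and miR-122 had limma adjusted p of 0.021 and 0.037, among 19 miRNAs called. With the deposited shares, under a replicate block by day or without any of the 4 libraries, 0 of all 75 miRNAs and none of the members were called by limma, with between 15 and 24 at an unadjusted p under 0.05. The block was joined to each scaling after the data were seen. On the centred log ratio miR-215 and miR-122 then had a limma adjusted p of 0.0020 and 0.0052, among 26 miRNAs called. With a denominator free of miR-10b and miR-191 miR-215 was the only member called (limma adjusted p = 0.042), among 12 miRNAs. With shares of all analysed reads 8 miRNAs were called and no member was. Leaving out libraries was not run on the other scalings.

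With all 5 milk and 2 serum libraries, both serum values of miR-215 lay above every milk value. In an exact permutation test over the 21 choices of 2 libraries from 7, miR-215 had a two-sided p of 0.048, the smallest possible, and an adjusted p of 0.19 over 85 miRNAs, the smallest that any miRNA reached. For miR-133a, which passed the filter only with its serum values and is not read as a result, the exact p was 0.095. For miR-122 it was 0.14. Without the serum of day 120 these became 0.33 and 0.67, and the log2 difference of miR-122 went from -2.22 to -0.58. Of the 85 miRNAs 13 had both serum libraries above all milk libraries (15.3%). MiR-1 is counted in these 13, but it entered through its serum values alone and is not read as a result. MiR-122 and miR-133a overlapped between the fluids, miR-122 through the milk of day 35 and miR-133a through that of day 120.

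From day 120 to day 175 the members that were measurable in both fluids moved in the same direction in milk and in serum. MiR-122 was 4-fold lower in milk, with a range of 3-fold to 5.67-fold, beside 10.7-fold lower in serum. MiR-133a went from 0.004% to absence in milk, where it could only come out lower, beside 0.008% to 0.002% in serum. MiR-215 was 5.36-fold higher in milk beside 1.73-fold higher in serum. Of the 75 miRNAs that entered the limma test, 29 moved the same way in both fluids (38.7%), 5 downward and 24 upward, and 37 moved in opposite ways. The other 9, miR-1 among them, did not change in 1 of the fluids. A single step of 0.001% is counted as a move, as for miR-150 in milk. This comparison of directions was chosen after the values were seen. The split turned with the scaling, to 18 downward and 17 upward with a denominator free of miR-10b and miR-191, to 13 and 20 on the centred log ratio, and to 3 and 31 with shares of all analysed reads.

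Within milk alone 2 of the 3 members compared, miR-122 and miR-133a, were at least 2-fold lower at day 175, against 7 of 82 miRNAs (8.54%). MiR-133a, absent at day 175, entered through its day 120 value and could only come out lower, so that its direction in milk is not read. MiR-215 was among the 51 of 82 that were at least 2-fold higher (62.2%). A miRNA absent from milk at day 120 can only come out higher in this comparison, and 57 miRNAs were above 0 at day 120 against 81 at day 175. MiR-122 and miR-133a were the only 2 of the 75 that were at least 2-fold lower in both fluids with the deposited shares, a pair singled out after the values were seen. Of these 2, only miR-122 had a measured share in both fluids at both days, and nothing is read from the place of miR-133a. This count adds 0.001 to each percentage. With shares of all analysed reads and the same 0.001 added, only miR-133a remained, with its direction in milk fixed. Without the added 0.001, miR-122 was still at least 2-fold lower in both fluids. Under the other 2 scalings miR-20 joined both. Each direction rests on 1 library per day and fluid.

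**Figure D4:**
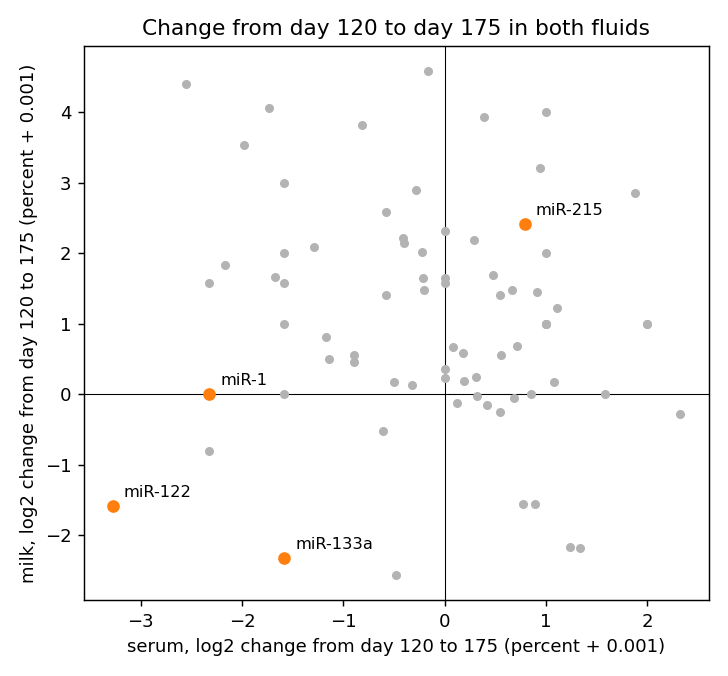
Change from day 120 to day 175 in serum (x) and milk (y) of 75 miRNAs, as log2 of percent plus 0.001, with members in orange. MiR-122 and miR-133a, the latter absent from milk at day 175, lie in the lower left, miR-215 in the upper right, and miR-1, absent from milk, on the horizontal line at 0.

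The miRNA whose pattern was most like that of miR-215 over the 7 libraries was miR-10a, with a Pearson correlation of 0.91 of log2 percent plus 0.001 among the 39 other miRNAs above 0 in all libraries. MiR-10b followed with 0.84 and miR-100 with 0.74. These correlations describe 7 points that fall into 2 fluids, and in the 5 milk libraries alone those of miR-10b and miR-100 were 0.42 and 0.45. MiR-10a took 7.20% and 10.6% of serum reads and between 0.177% and 0.714% of milk reads, with its highest milk share at day 175 like miR-215. For miR-122 the most similar were miR-25 with 0.73, miR-181b with 0.67 and miR-92 with 0.65. MiR-122 and miR-215 correlated at 0.30 with each other.

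No other miRNA of the muscle, liver and gut and kidney lists was listed in any library. MiR-192 and miR-194, which accompany miR-215 in gut and kidney of other mammals, were named in the table and listed in none of the 7 libraries, so that 1 of the 3 gut and kidney miRNAs was found. As miR-192 is near-identical to miR-215, its reads could have been counted under miR-215, and its absence from the listing does not show that it was absent from the samples. For liver 1 of 2 was found, as miR-885 was not listed, and for muscle 3 of the 6 names in the table. Of the brain miRNAs miR-9, miR-124 and miR-153, 0 of 3 were listed in any milk or serum library.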

How the data were processed

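Small RNA was sequenced from 5 milk and 2 serum samples. The authors removed adaptors and low quality reads, matched reads to known miRNAs of miRBase version 19 with miRanalyzer, and deposited each miRNA's share as a percent of the annotated reads of its library, with 3 decimals. Every sample column was used. The members, lists and tests were chosen with earlier results of these data known. Named were all members, listed miRNAs of the marker lists, the 3 miRNAs most correlated with miR-122 and with miR-215, and miR-10b and miR-191 for the scaling. Unlisted miRNAs of the lists are named without values, and miR-20 was named after its values were seen.

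Absent entries were taken as 0. Ratios of percentages carry the interval left by rounding. Tests used limma 3.58.1 in R 4.3.3 on log2 of percent plus 0.001, for miRNAs with at least 0.001% in at least 2 libraries, with Benjamini-Hochberg adjustment, and an exact permutation test in Python 3.11.15. Limma was tested on simulated data. The study states that the same females gave milk and serum, so milk and serum pair by day. As milk was pooled from 4 females and serum came from 2 at each of these days, the pairing is partial at best. With only 2 pairs, their day 120 to 175 differences correlated at -0.12 between the fluids, over 75 miRNAs. Alternatives were other pseudocounts, filters and scalings, the day as a block, and each library left out. Untested values count as moved beyond 1.5-fold, and correlations beyond 0.1, in the absence of replicates.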

Additional observations from a re-analysis of the deposited data

Results flagged for a closer look

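In milk, the highest library stood apart from the other 4 for all 3 members with a measurable share, by a gap of more than 0.71 of the range. These were miR-133a with 0.004% at day 120, where the gap was the whole range, miR-122 with 0.04% at day 35, with a gap of 0.82 of the range, and miR-215 with 0.616% at day 175, with a gap of 0.81. Such a gap arises by chance in about 1 in 20 groups of replicates, but these libraries are different days and not replicates, and 31 of the 89 miRNAs above 0 in milk met the same criterion (34.8%).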

How the results depend on the processing

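Of all alternatives run, 0 reversed the direction of a member's difference, but that of miR-1 was fixed by its absence from milk. The scaling shifts all miRNAs of a library alike. It moved many ratios of milk over serum and between days of milk, but none between the serum libraries. For milk over serum the log2 shift at days 120 and 175 was -1.07 and -1.52 with a denominator free of miR-10b and miR-191, -0.42 and -1.47 on the centred log ratio, and -1.58 and -0.64 relative to all analysed reads. The number of miRNAs called by limma, 14, became 27 with miR-10b and miR-191 left out and 27 on the centred log ratio, and 3 members were called in each, miR-1 among them. Relative to all analysed reads 19 miRNAs and 2 members were called. With the day as a replicate block 0 of 75 miRNAs were called by limma, with 20 at an unadjusted p under 0.05. When the replicate block was joined to a scaling, chosen after seeing the data, 12 miRNAs and 1 member were called with miR-10b and miR-191 left out, 26 and 3 on the centred log ratio, and 8 and 0 relative to all analysed reads. On the deposited shares, with each library left out in turn the number was 0 throughout. The lone library of a fluid was then assumed to vary like the other fluid.

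In the exact permutation test the p of miR-215 became 0.095 with ranks. That of miR-133a, which passed the filter only with its serum values and is not read as a result, became 0.048 under all 3 scalings. With single libraries left out the exact p of miR-215, and of miR-1 with its fixed direction, lay between 0.067 and 0.17. The smallest p possible was then 0.067 without a milk library and 0.17 without a serum library, and miR-215 lay above it, at 0.13, without the milk of day 120 or of day 250. The exact p of miR-122 ranged from 0.067, without the milk of day 35, to 0.67, and that of miR-133a from 0.067, without the milk of day 120, to 0.33.

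With miR-10b and miR-191 left out the log2 ratio of milk over serum was -2.07 for miR-133a, -4.66 for miR-122 and -4.84 for miR-215 at day 120, and -3.69 for miR-122 and -3.66 for miR-215 at day 175. Relative to all analysed reads these were -2.58, -5.17, -5.35, -2.81 and -2.78. On the centred log ratio the day 175 values were -3.64 for miR-122 and -3.61 for miR-215. Within serum a single value moved, the fall of miR-1, to -2.32 with 0.001 added.

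Within milk, the log2 fall of miR-122 from day 35 to day 75 was -4.36 relative to all analysed reads and also with 0.001 added, and that to day 250 was -1.73 relative to all analysed reads. From day 120 to day 175 it was -2.71 with miR-10b and miR-191 left out, -2.88 on the centred log ratio and -1.15 relative to all analysed reads, and that of miR-215 was 1.71, 1.54 and 3.27. From day 35 to day 175 miR-215 rose by 3.75 with miR-10b and miR-191 left out and 3.57 on the centred log ratio. Its step from day 175 to day 250 was -1.20 on the centred log ratio and -1.53 relative to all analysed reads, and day 250 over day 35 was 3.36 on the latter scale.

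The comparison of directions between the fluids was chosen after seeing the data. The number of miRNAs that moved the same way in both, 29, became 11 when at least 2-fold was asked for in both. MiR-122, miR-133a and miR-215 moved the same way under all 3 scalings, although miR-133a, absent from milk at day 175, could only fall there. Correlations with miR-122 became 0.54 for miR-25 in milk alone, 0.82 for miR-181b on the centred log ratio, and 0.75, 0.78 and 0.82 for miR-92 as Spearman, on the centred log ratio and in milk alone. In milk alone those of miR-215 became 0.42 with miR-10b and 0.45 with miR-100. The step of 0.001% limits every value of the muscle miRNAs.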
